A study of Mus musculus with 8 samples.

Results

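Notch signalling genes were examined in kidneys of p53 null mouse embryos, set against kidneys of p53 wild-type embryos. The set held 10 genes by role: the ligands Jag1, Jag2 and Dll1, the glycosyltransferase Lfng, the receptors Notch1, Notch2 and Notch3, and the effectors Hes1, Hes5 and Hey1. Their probes were found by matching the transcript identifier of each non-control probe to these symbols, which gave 14 probes of 41174 on the array. Of these, 12 probes for 9 genes were bright enough to be tested, among 20865 tested probes that stand for 12000 genes. Notch1 was the gene without a testable probe. In GRCm38.p6, Notch1 and Jag1 lie on chromosome 2, Notch2 and Hey1 on chromosome 3, Notch3 and Dll1 on chromosome 17, Hes5 on 4, Lfng on 5, Jag2 on 12 and Hes1 on 16.

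Notch receptors are cut when a ligand on a neighbouring cell binds them, and the freed intracellular part enters the nucleus, where it joins the DNA-binding protein Rbpj and a Mastermind co-activator to switch on Hes and Hey repressors. In the developing mouse kidney, Notch2 is needed for nephron progenitor descendants to form podocytes and proximal tubule, and Jag1, Dll1 and Lfng are known from the early nephron. Notch3 is best known from the smooth muscle cells and pericytes of blood vessels.

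Both genotypes were on the C57BL/6 strain and were taken at embryonic day 15.5. Each of the 8 arrays carried RNA of p53 null kidneys in one dye and RNA of p53 wild-type kidneys in the other, so every value below is a log2 ratio of null over wild type within an array. Replicate 1 had 4 arrays on slide 1, and replicates 2 and 3 had 2 arrays each on slide 2, with null RNA in Cy5 on 4 arrays and in Cy3 on the other 4. The part of Trp53 that is deleted and the number of embryos or litters behind each RNA are not given in the sources used here.

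Some facts of the series bear on every value. Between 50.1% and 60.6% of probes were well above background in null RNA and between 46.9% and 62.8% in wild-type RNA, and 0 spots were saturated. The brighter Trp53 probe had log2 ratios of −1.08, −0.47 and −0.45 in replicates 1, 2 and 3, and it was lower in null RNA on 8 of 8 arrays (limma adjusted p = 0.279). The second Trp53 probe averaged 0.16 ± 0.13 (SD, n = 3, limma adjusted p = 0.387), and which exons the probes lie in relative to the deletion was not tested. Replicates 2 and 3 correlated at 0.93 across 20865 probes, while replicate 1 correlated with them at 0.06 and −0.15, a description across probes that are not independent. The scan names number the wild-type RNA as 1 in all 3 replicates, and the null RNA as 2, 2 and 3 in replicates 1, 2 and 3. Replicate 1 thus carries the same numbers as replicate 2, with which it correlated at 0.06. The numbers alone therefore do not tell whether an RNA was shared. Between replicates 2 and 3 the difference in log2 signal had an SD of 0.183 and 0.199 for null RNA and of 0.136 and 0.142 for wild-type RNA, while repeat arrays of replicate 1 gave 0.134 to 0.186. The null value of 0.183, in Cy5, lies within that range too, so these SDs cannot tell a shared RNA from separate ones. Replicates 2 and 3 may share 1 wild-type RNA, which neither the labels nor the SDs settle. If they do, their closeness is partly that of a shared sample. Slide and replicate 1 cannot be told apart.

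None of the 9 tested genes passed the test (limma adjusted p under 0.05 over all tested probes), and of all tested probes 0% passed. Without the adjustment, 3 genes had p under 0.05, namely Jag1, Notch2 and Hes1, all lower in null kidneys, against 17.1% of all probes in either direction and 8.15% in the lower direction. By their mean, 7 genes were lower in null kidneys and 2, Lfng and Hes5, were higher. In all 3 replicates, 5 genes were lower (Jag1, Jag2, Dll1, Notch2 and Hes1), against 19.4% of all probes, and 0 were higher, against 21.0%. The share with 1 sign in all 3 replicates was 40.4% over all probes. The brighter probe of Notch2 and the probe of Hes1 were lower on all 8 arrays, as 7.47% of all probes were, and 0 genes were higher on all 8, against 8.09%. The median over the 9 genes was −0.34, against 0.00 over 12000 genes. The members were chosen with results of these arrays known, so these counts describe them and do not set them apart.

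**Figure D1:**
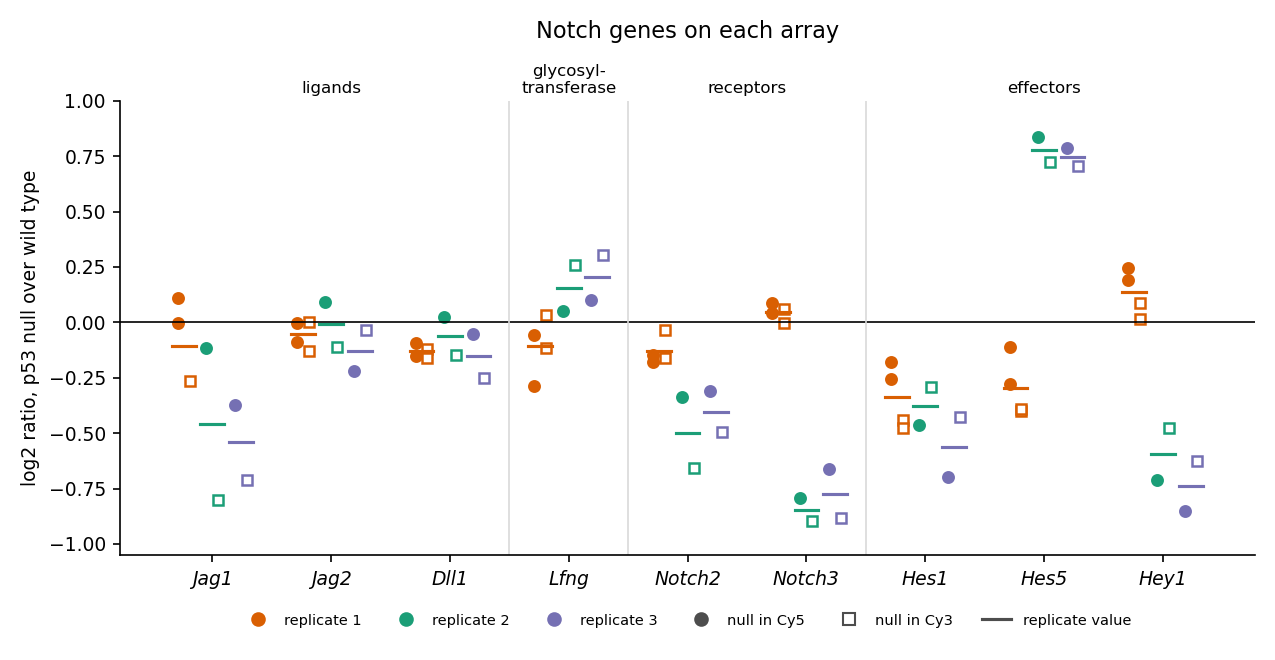
Log2 ratio of p53 null over wild type (vertical axis) for the 9 tested Notch genes on each array, filled circles with null RNA in Cy5 and open squares with null RNA in Cy3, coloured by replicate; each bar is a replicate's value. Hes1 lies below 0 on all 8 arrays, while Notch3, Hes5 and Hey1 lie on opposite sides of 0 in replicate 1 and in replicates 2 and 3.

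Of the ligands, Jag1 was lower in null kidneys in all 3 replicates by a size that varied between arrays, and Jag2 and Dll1 lay close to 0. Jag1, a membrane ligand, had log2 ratios of 0.11, −0.00 and −0.27 on the 3 arrays of replicate 1 that could be read, −0.12 and −0.80 in replicate 2, and −0.37 and −0.71 in replicate 3. It was lower on 6 of 7 arrays, and only the first array of replicate 1 was above 0. The replicate values were −0.11, −0.46 and −0.54, with a mean of −0.37 ± 0.23 (SD, n = 3, limma adjusted p = 0.279, 95% interval −0.68 to −0.06). Of the 9 genes Jag1 differed most between dyes: its mean was −0.15 with null RNA in Cy5 and −0.59 with null RNA in Cy3. The SD between arrays of 1 replicate was 0.303, and the spot of the eighth array was left out because the scanner marked it as non-uniform. That spot also differed in brightness between arrays of the same RNA: with null RNA in Cy3, its median signal in replicate 1 was 306.5 on the flagged array and 1869 on the repeat. The second Jag1 probe was not well above background on any array and was not tested.

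Jag2, another Jagged ligand, ranged from −0.22 to 0.09 over the 8 arrays. Its replicate values of −0.05, −0.01 and −0.13 sat close to 0, and the mean was −0.06 ± 0.06 (SD, n = 3, limma adjusted p = 0.645). Dll1, a Delta-type ligand printed on 10 spots, ranged from −0.25 to 0.03 and was lower on 7 of 8 arrays. Its replicates gave −0.13, −0.06 and −0.15, a mean of −0.11 ± 0.05 (SD, n = 3, limma adjusted p = 0.424, 95% interval −0.31 to 0.08). When each array was centred on its median in place of loess, the means of Jag2 and Dll1 were 0.014 and 0.11, so their direction depends on the normalization.

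Lfng adds a sugar to Notch receptors and changes which ligands they respond to. Its brighter probe had log2 ratios of −0.06, −0.12, −0.29 and 0.03 in replicate 1, 0.05 and 0.26 in replicate 2, and 0.10 and 0.30 in replicate 3. The replicates thus fell on both sides of 0, at −0.11, 0.15 and 0.20, with a mean of 0.08 ± 0.17 (SD, n = 3, limma adjusted p = 0.648). The second Lfng probe gave −0.19, 0.15 and 0.18, the same order. The dyes differed as well, with a mean of −0.01 with null RNA in Cy5 and 0.17 with null RNA in Cy3 for the brighter probe.

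Of the receptors, Notch2 was lower in null kidneys on every array with each of its 3 probes, 24 of 24 array values. Its brightest probe had −0.15, −0.03, −0.18 and −0.16 in replicate 1, −0.34 and −0.66 in replicate 2, and −0.31 and −0.50 in replicate 3. All arrays of slide 2 lay below all arrays of slide 1, and the replicate values were −0.13, −0.50 and −0.40. The mean was −0.34 ± 0.19 (SD, n = 3, limma adjusted p = 0.279, 95% interval −0.62 to −0.07), or 0.788 of wild type. The other Notch2 probes were dimmer and nearer to 0, with means of −0.16 ± 0.03 and −0.11 ± 0.05 (SD, n = 3 each, limma adjusted p = 0.314 and 0.435). The dimmest of the 3 was well above background in null RNA on 5 of 8 arrays and in wild-type RNA on all 8.

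Notch3 had 0.09, −0.00, 0.04 and 0.06 in replicate 1, but −0.79 and −0.90 in replicate 2 and −0.66 and −0.89 in replicate 3. Its arrays on slide 1 did not overlap those on slide 2. The normalized log2 intensity was 11.20, 10.36 and 10.28 in null kidneys of replicates 1, 2 and 3, and 11.15, 11.21 and 11.05 in wild-type kidneys. On slide 2 the null kidneys had 0.571 of the wild-type signal, and in replicate 1 they had 1.03 times. The mean over replicates was −0.52 ± 0.49 (SD, n = 3, limma adjusted p = 0.304), the largest of the 9 genes in size and among the least even between replicates.

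Notch1, with 1 probe, was well above background in both genotypes on the 4 arrays of slide 1 and on 0 of 4 arrays of slide 2. On slide 1 its log2 ratios were −0.04, −0.24, −0.13 and −0.22, which averaged −0.16. No difference in Notch1 could be tested from 1 replicate.

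Among the effectors, Hes1 had the most even difference. This repressor, a main Notch target in many tissues, had −0.18, −0.44, −0.25 and −0.48 in replicate 1, −0.46 and −0.29 in replicate 2, and −0.70 and −0.43 in replicate 3. All 8 arrays were below 0, and the arrays of the 3 replicates overlapped. The normalized log2 intensity was 8.47, 9.14 and 8.93 in null kidneys of replicates 1, 2 and 3, against 8.81, 9.51 and 9.49 in wild-type kidneys. Hes1 averaged −0.43 ± 0.12 (SD, n = 3, limma unadjusted p = 0.00583 and adjusted p = 0.279, 95% interval −0.65 to −0.20), or 0.745 of wild type.

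Hes5, a related repressor, went opposite ways on the slides. Its log2 ratios were −0.11, −0.40, −0.28 and −0.39 in replicate 1, 0.84 and 0.72 in replicate 2, and 0.79 and 0.70 in replicate 3. The normalized log2 intensity was 10.85, 11.31 and 11.25 in null kidneys of replicates 1, 2 and 3, and 11.15, 10.53 and 10.502 in wild-type kidneys. On slide 2 null kidneys had 1.70 times the wild-type signal, and on slide 1 they had 0.815 times. Its mean of 0.41 ± 0.61 (SD, n = 3, limma adjusted p = 0.425) is smaller than its spread.

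Hey1, a Hes-related repressor that Notch also switches on, had 0.25, 0.09, 0.19 and 0.02 in replicate 1, −0.71 and −0.48 in replicate 2, and −0.85 and −0.63 in replicate 3. Again the slides did not overlap, with Hey1 and Hes5 on opposite sides of 0 on each slide. The normalized log2 intensity was 12.30, 12.13 and 12.04 in null kidneys, against 12.16, 12.73 and 12.78 in wild-type kidneys. The mean was −0.40 ± 0.47 (SD, n = 3, limma adjusted p = 0.356), with 0.630 of the wild-type signal on slide 2.

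**Figure D2:**
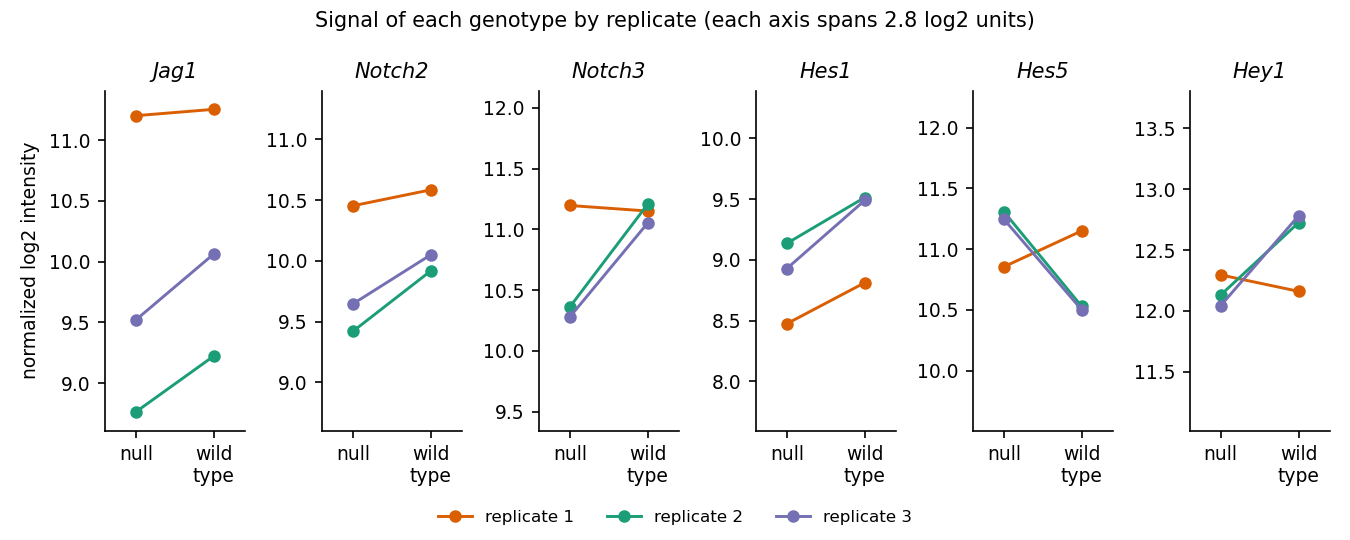
Normalized log2 intensity (vertical axes, one probe per panel, no panel set against another) of 6 Notch genes in null and wild-type kidneys, with a line for each replicate. Hes1 and Notch2 are lower in null kidneys in all 3 replicates, while the lines of Notch3, Hes5 and Hey1 slope the other way in replicate 1.

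Most of the difference in Notch3, Hes5 and Hey1 came from replicates 2 and 3. When replicate 1 was left out, 7 of the 9 genes passed the test (limma adjusted p under 0.05), as did 56.0% of all probes. Those lower were Jag1, Notch2, Notch3, Hes1 and Hey1, against 25.3% of all probes, and those higher were Lfng and Hes5, against 30.8%. These replicates have the same sign at 83.9% of probes and may share a wild-type RNA, so their small spread may in part be that of 1 wild-type sample. With slide as a fixed block, Jag1, Notch2, Notch3, Hes1, Hes5 and Hey1 passed, against 40.9% of all probes. With either replicate 2 or replicate 3 left out, 0 of the 9 genes and 0 of 20865 probes passed, with 289 and 825 probes at an unadjusted p under 0.05 in limma.

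**Figure D3:**
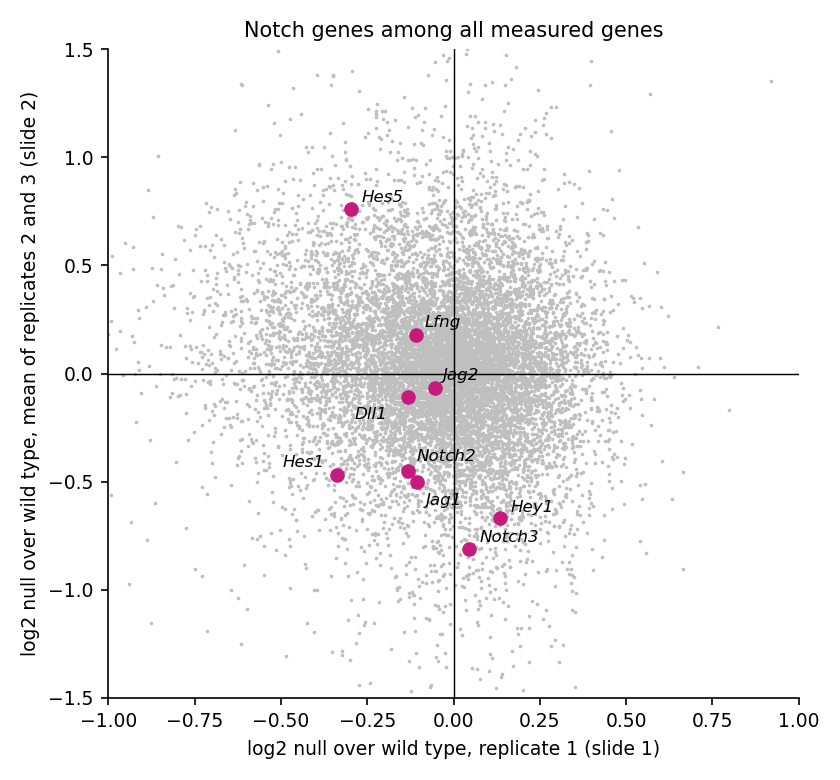
Log2 ratio of null over wild type in replicate 1 on slide 1 (horizontal axis) and as the mean of replicates 2 and 3 on slide 2 (vertical axis) for all measured genes in grey and the 9 Notch genes in colour; 109 genes lie outside the plotted range. Jag1, Jag2, Dll1, Notch2 and Hes1 lie at the lower left, Hes5 and Lfng in the upper left, and Notch3 and Hey1 in the lower right.

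Promoter letters are shown for Hes5 and Lfng, which were the genes higher on slide 2, and for Notch3, which was lowest there. RefSeq windows (GRCm38.p6) were found for 8 of the 10 genes, 9 windows in all. Hes1 and Hey1 had no window and were not searched, so the matches cannot be set against direction among the effectors. The windows run 250 bases upstream of the start site, which were searched together with the 50 bases that follow. The search was for the Rbpj core TGGGAA and for the longer GTGGGAA, which contains it, on both strands. The core was in 2 of the 9 windows, Hes5 and Lfng, against 25.6% of 32851 windows, and the longer form was in the same 2 windows, against 6.38%. In Hes5 the core started at −226 on the minus strand and −82 on the plus strand relative to the start site, and in Lfng at −135 and −108. A p53 half-site was in 0 of the 9 windows, against 8.36% of all. These matches describe letters and not binding. The windows are Hes5 (chr4:154960673-154960922, plus strand), Lfng (chr5:140607091-140607340, plus strand) and Notch3 (chr17:32166891-32167140, minus strand), 5′ to 3′, with the core on either strand in capitals.
Hes5: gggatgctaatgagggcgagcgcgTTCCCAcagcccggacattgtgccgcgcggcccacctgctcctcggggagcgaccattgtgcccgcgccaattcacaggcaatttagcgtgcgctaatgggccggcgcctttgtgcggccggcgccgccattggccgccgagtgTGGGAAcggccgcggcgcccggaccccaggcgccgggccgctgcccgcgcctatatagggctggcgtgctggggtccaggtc
Lfng: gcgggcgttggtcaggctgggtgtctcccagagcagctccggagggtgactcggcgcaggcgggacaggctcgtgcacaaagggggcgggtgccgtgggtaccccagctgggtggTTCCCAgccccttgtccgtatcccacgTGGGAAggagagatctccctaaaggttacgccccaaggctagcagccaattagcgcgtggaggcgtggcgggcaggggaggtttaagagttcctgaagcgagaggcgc
Notch3: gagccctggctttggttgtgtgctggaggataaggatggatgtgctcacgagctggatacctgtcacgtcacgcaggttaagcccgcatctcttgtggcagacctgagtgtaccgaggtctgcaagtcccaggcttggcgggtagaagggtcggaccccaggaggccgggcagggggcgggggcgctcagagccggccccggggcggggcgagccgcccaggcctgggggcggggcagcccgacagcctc

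The genes most like 3 members were found over the 8 arrays among 12000 genes, by the root mean square difference of log2 ratios. H2-K1, Tmx4 and Csta2 differed least from Notch3, by 0.0575, 0.0624 and 0.0746. Tns3, Foxs1 and Atrnl1 differed least from Hes1, by 0.104, 0.115 and 0.134. Farp2, Ndufa5 and Trappc5 differed least from Hes5, by 0.0891, 0.0906 and 0.0974. Each neighbour shares these arrays, so likeness includes what the slides have in common.

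Of 74 other genes of the pathway, 55 could be measured, and none passed the test (limma adjusted p under 0.05), while 12 had an unadjusted p under 0.05, 4 higher and 8 lower in null kidneys. Over all 12000 genes, 2177 had an unadjusted p under 0.05, 1106 higher and 1071 lower. By their mean 23 were higher and 32 lower, and 7 were higher and 17 lower in all 3 replicates, against 2447 higher and 2368 lower of 12000 genes. The median over them was −0.03, against −0.34 over the 9 members and 0.00 over all genes.

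Of the other ligands and receptors, 6 of 10 were measured, with 4 higher and 2 lower by mean. Dlk1, a Delta-like membrane protein without the receptor-binding domain of classical ligands, had −0.88, −1.21 and −1.11 in replicates 1, 2 and 3. It was lower on 8 of 8 arrays, with a mean of −1.06 ± 0.17 (SD, n = 3, limma adjusted p = 0.279), and it passed when the 8 arrays were fitted with replicate as a random effect (limma adjusted p = 0.0157). Notch4, a receptor of endothelium, had −0.52, 0.37 and 0.75. The endothelial ligand Dll4 had −0.35, −0.01 and 0.26, so both genes had values on either side of 0.

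Among genes that modify or process ligands and receptors, 21 of 28 were measured, with 10 higher and 11 lower. The ligand-activating ubiquitin ligase Mib2 had −0.48, −0.44 and −0.22, and the Deltex genes Dtx1 and Dtx3 averaged −0.33 and −0.24. Of the other measured Deltex genes, Dtx2 had −0.54, 0.07 and 0.25, and Dtx4 averaged 0.31 with its brightest probe. The dimmer Dtx4 probes averaged −0.33 and 0.09. The Notch antagonist Numb had −0.15, −0.14 and −0.12. The Fringe enzymes Mfng and Rfng had −0.21, 0.63 and 0.83, and −0.18, 0.14 and 0.20, below 0 in replicate 1 and above it in replicates 2 and 3, as for Lfng. Adam10, whose product cuts the receptor, had no tested probe.

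In the nuclear complex, 18 of 21 genes were measured, with 5 higher and 13 lower. Rbpj and Maml1 had no tested probe. The Mastermind genes Maml2 and Maml3 averaged −0.35 and −0.12, while the co-repressor Tle4 and the acetyltransferase Kat2b averaged 0.29 and 0.27.

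Of the other effectors and feedback genes, 10 of 15 were measured, with 4 higher and 6 lower. Heyl, a Hey family repressor, had 0.27, 1.29 and 1.12 and was higher in null kidneys on 8 of 8 arrays (mean 0.89 ± 0.55, SD, n = 3, limma adjusted p = 0.279), although its second probe had −0.52, 0.44 and 0.80. Hey2 averaged 0.11. Nrarp, a feedback inhibitor, had −0.17, 0.40 and 0.26, and Hes6 had −0.32, 0.03 and 0.21. Cdkn1a, the cell cycle inhibitor that p53 also switches on, had −0.27, −1.24 and −1.16. Bhlhe40, a repressor that hypoxia also induces, had −0.13, −3.21 and −3.25. With 8 arrays and replicate as a random effect, Heyl, Cdkn1a and Bhlhe40 passed together with Dlk1 (limma adjusted p = 0.0286, 0.0313 and 0.0364), as did 5.34% of all probes. That fit has no slide term and takes 1 correlation between arrays of a replicate, 0.722, for all probes. Bhlhe40 had an SD of 1.79 between replicates and 0.10 between arrays of 1 replicate, so the fit may understate its spread.

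**Figure D4:**
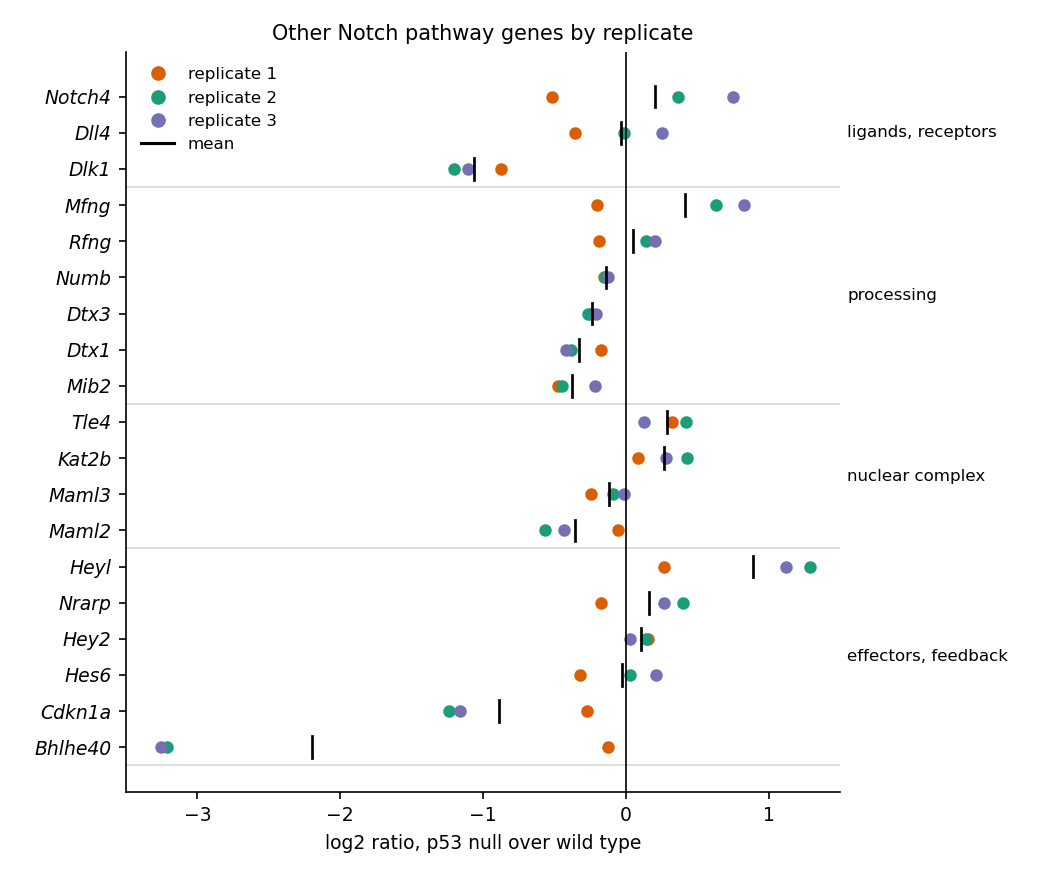
Log2 ratio of null over wild type (horizontal axis) by replicate for 19 other Notch pathway genes, in order of role from top to bottom, with the mean as a bar. Dlk1 and Heyl lie on one side of 0 in every replicate, while Notch4 and Mfng lie below 0 in replicate 1 and above it in replicates 2 and 3.

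Podocyte, tubule and endothelial markers had medians below 0 on slide 1 and above 0 on slide 2, while early nephron, nephron progenitor and stromal markers did not split that way, as the plot of marker lists shows. In bulk tissue fewer cells of a type and less RNA per cell cannot be told apart. Early nephron markers, 15 of 15 above background on all 8 arrays in both genotypes, had medians of −0.19, −0.18 and −0.08 in replicates 1, 2 and 3, and nephron progenitor markers had −0.02, 0.01 and −0.01. Podocyte markers had −0.21, 0.14 and 0.22, proximal tubule markers −0.20, 0.80 and 1.15, and loop of Henle and distal tubule markers −0.06, 0.66 and 0.67. Ureteric bud and collecting duct markers had −0.31, −0.16 and −0.01, and endothelial markers −0.12, 0.48 and 0.63. Stroma and mural cell markers, the list nearest to where Notch3 is known, had −0.28, −0.17 and −0.20.

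Markers of cells from outside the nephron also differed. Leukocyte markers had medians of 0.24, 0.57 and 0.58, erythroid markers −0.31, 1.26 and 1.56, liver markers −0.03, 0.97 and 0.59, and nerve and glia markers 0.04, 0.28 and 0.21. Of the 6 erythroid genes measured, 5 were higher by mean and 1, Hbb-y, was lower, with a mean of −1.58. Immediate early genes had −0.07, −0.53 and −0.49. Hypoxia response genes had −0.06, −2.14 and −2.19, with mean log2 levels of 9.999, 10.19 and 10.12 in null kidneys and 10.10, 12.37 and 12.33 in wild-type kidneys. By these levels the wild-type kidneys of slide 2 stood apart for those genes, but levels compared across slides are open to scan differences. The ratios within arrays do not tell which genotype changed. These ratios were largest in size in the same replicates in which Notch3, Hey1 and Hes5 differ most. The part of the hypoxia response genes in the Notch values was not tested. The p53 target list, which shares Ddit4 with the hypoxia list, had medians of −0.15, −0.01 and −0.15. Of its 14 measured genes, 7 were higher and 7 lower by mean. At an unadjusted limma p under 0.05, 4 were lower and 0 higher, against 1071 lower and 1106 higher of 12000 genes.

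**Figure D5:**
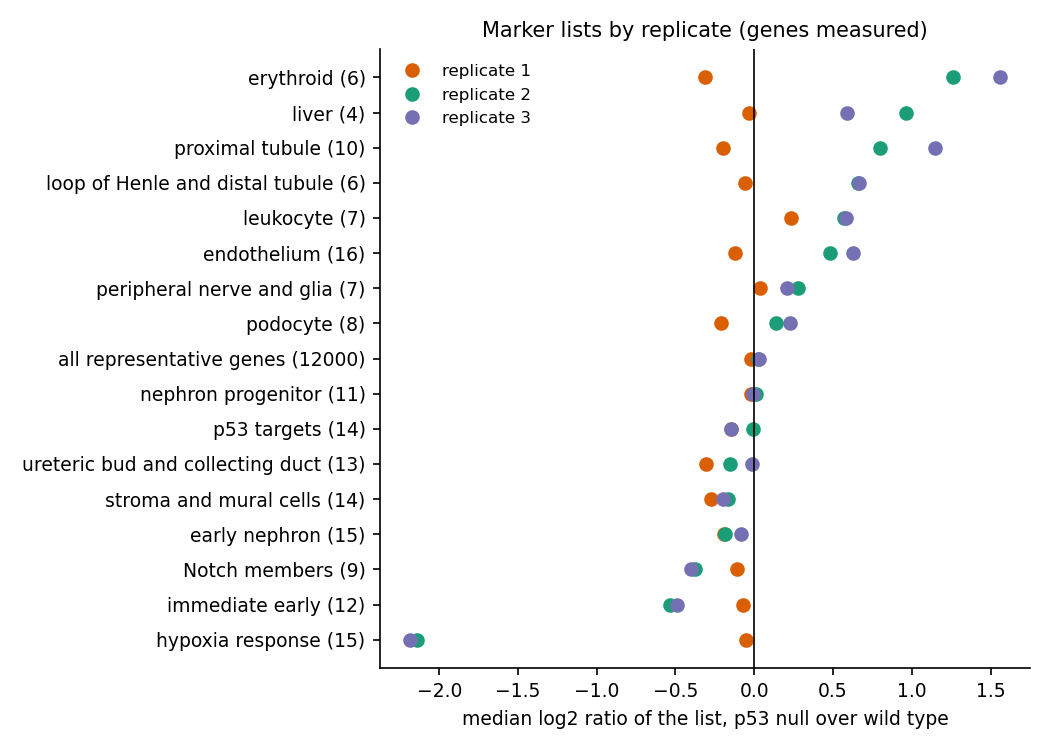
Median log2 ratio of null over wild type (horizontal axis) by replicate for each marker list, the 9 Notch genes and all 12000 genes, with the number measured in brackets. Hypoxia response genes reach −2.19 and erythroid markers 1.56 in replicate 3, and both lie near or below 0 in replicate 1.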

How the data were processed

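RNA of p53 null and p53 wild-type kidneys was hybridised to 8 arrays with 2 colours. The deposited scanner files give each spot's median signal and local background as linear intensity, together with quality flags. Version 10.5.1.1 of Agilent's extraction program stands in the file headers, and version 6.1 in the submitters' processing notes. The deposited value table holds log10 ratios, which equalled the log10 red over green ratio of the scanner files turned to null over wild type (largest difference 4.94e-06). Its column medians ran from −0.00244 to 0.0111.

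Signals were background-corrected with normexp (offset 50) and loess-normalized within each array, with 1639 control spots at weight 0 and later left out with outlier spots, in limma 3.58.1 (R 4.3.3). Log2 ratios of dye-swapped arrays were turned and averaged within orientation, then over both orientations, to 1 value per replicate. A Jag1 spot on 1 array was dropped by its flag. Levels by genotype came from the same signals after limma's Aquantile normalization between arrays, and levels across slides are open to scan differences, since slide 1 had an extended-range scan. A probe was kept (20880 were) when, in 1 genotype or both, 50% or more of every replicate's arrays had it well above background. The 20865 with 3 replicate values were tested with limma's moderated test against 0, two-sided, with Benjamini-Hochberg adjustment over all of them. A gene is represented by its brightest tested probe. Each p-value measures the spread between 3 samples the labels call biological replicates, and a sign permutation over 3 replicates cannot go below p = 0.25. The 3 replicates on 2 slides limit the precision, since arrays of a replicate repeat the same pair of RNAs.

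The members and gene lists were chosen with earlier results of these data known. All members were named, with pathway genes from a fixed list and the genes of smallest limma p with one sign across replicates and dye orientations. Dtx2 and Dtx4 were added beside Dtx1 and Dtx3. The genes most alike were the 3 nearest to each of the 3 members with the largest mean ratio. Of 41174 non-control probes, 25097 had a gene name through RefSeq identifiers of GRCm38.p6. Alternatives changed the background correction, normalization, dim-probe filter, probe summary, slide, dye and replicates. The steps were tested on simulated data with each probe's measured spread. The test recovered 2 of 50 probes changed 1.5-fold, 21 of 50 at 2-fold, 37 of 50 at 4-fold and 44 of 50 at 8-fold. It made 4 false calls among 20665 unchanged probes. The simulated replicates were drawn independently, while replicates 2 and 3 share a slide, so these counts may not hold for the real arrays. The largest mean of the 9 members, that of Notch3, was 1.44-fold, a size near which the simulated test made few calls.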

Additional observations from a re-analysis of the deposited data

How the results depend on the processing

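Of 17 alternatives (16 for Jag1), the means of Notch2, Notch3, Jag1, Hes1, Hes5 and Hey1 kept their direction in each that gave a value, while Jag2 and Dll1 turned to 0.014 and 0.11 with median centring and Lfng to −0.0064 with null RNA in Cy5 only. Median centring moved the median of all genes to 0.15 and that of the 9 members to −0.13, or −0.28 relative to it; null RNA in Cy5 only gave a members' median of −0.15. The causes were not tested.

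Leaving out a replicate gave 0 to 11694 probes, 0 to 7 members and 0 to 30 pathway genes past limma's threshold, with a members' median of −0.45 to −0.23; the highest counts came without replicate 1, where the spread rests on 1 slide and perhaps 1 wild-type RNA. With slide as a fixed block, whose spread comes from replicates 2 and 3 alone, 8533 probes (40.9%), 6 members and 25 pathway genes passed. With 8 arrays and replicate as a random effect (correlation 0.722), 1115 probes, 4 pathway genes and 0 members passed, with 5 of 9 members and 5226 of 20865 probes at an unadjusted p under 0.05. Without such changes 0 probes passed, with 3578 at an unadjusted p under 0.05; 1 value per slide gave 0 and 522. With replicate 1 from its first dye pair only, Jag1 had no value.

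The main test is already paired, since each array sets null against wild-type RNA. No further pairing was possible, because the comparison has 1 set of replicate numbers. Notch1 and the second Jag1 probe lie too near background for a test.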

Other observations

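The X-linked RNA Xist, which coats the inactive X chromosome of female cells, was lower in null kidneys on 8 of 8 arrays. Its log2 ratios were −2.34, −0.66 and −1.74 in replicates 1, 2 and 3, and its probe was well above background in null RNA on 2 of 8 arrays and in wild-type RNA on all 8 (mean −1.58 ± 0.85, SD, n = 3, limma adjusted p = 0.279). The sources used here do not name the sex of the embryos, and its part in the Notch values was not tested.

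The first array of replicate 1 had smaller ratios than its repeats for Xist and the brighter Trp53 probe. Xist had −0.80 on it and −2.67, −3.04 and −2.85 on the other 3 arrays of that replicate, and Trp53 had −0.57 against −1.27, −1.18 and −1.31. Hes1 and Hes5, at −0.18 and −0.11, had their smallest differences of that replicate there, while Hey1, at 0.25, had its largest. For Hes1, Hes5 and Hey1 the repeat array with null RNA in Cy5 came next, at −0.25, −0.28 and 0.19. Their values thus also split by dye, so an effect of that array cannot be told apart for them.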
